A study of Mus musculus with 8 samples.

Results

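The genes described here make the glycerol backbone of triglyceride and add fatty acids to it. They are Gpam, Agpat2, Agpat3, Lpin1, Dgat1, Dgat2, Pck1, Gpd1, Gk and Aqp7, and they were taken by gene name from the deposited count table, in which they are 10 of 56953 genes. They were measured in brown adipose tissue (BAT) of wild-type C57BL/6J mice that were 8 to 10 weeks old at injection and kept at 21 °C. The 4 mice of the cancer-associated cachexia (CAC) group received 3000000 Lewis Lung Carcinoma (LLC) cells in PBS under the skin of the flank, and 4 control (CTR) mice received only PBS. LLC is a mouse lung tumour line, the mice were followed for 21 days, and mice in which no tumour grew were not included. The labels allow for males or females and do not give the sex of each library, and sex was not a term of the comparison. Ddx3y of the Y chromosome was at 62.2 to 72.9 CPM in all 8 libraries and Xist, the RNA of the inactive X chromosome, had 0 to 1 counts, so by these genes, chosen after the data had been seen, the groups did not differ in sex. The comparison asks whether transcripts of triglyceride assembly in BAT differ between tumour-bearing and control mice.

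Brown adipocytes store triglyceride in many small droplets and burn its fatty acids for heat, so the tissue both breaks down and rebuilds triglyceride. The backbone is glycerol-3-phosphate, which is made from the glycolytic intermediate dihydroxyacetone phosphate, from pyruvate by way of phosphoenolpyruvate (glyceroneogenesis), or by phosphorylation of free glycerol. Acyl groups are then added stepwise in the glycerol phosphate pathway, through lysophosphatidic acid, phosphatidic acid and diacylglycerol, to triglyceride.

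Each library held 1823167 to 4827956 counts, 2454493 to 4827956 in CTR and 1823167 to 3392538 in CAC, and 28.5% to 33.8% of them lay on mitochondrially encoded genes. Levels are given as CPM, counts scaled to a common normalized library size, and the most that a count of 0 allows, which is 3 counts, equals 0.66 to 1.62 CPM (counting error only). Each gene is compared only with itself in other libraries, since the values are not given per length. Across all genes tested with edgeR, 92 of 9876 had an adjusted p below 0.05 (0.932%) and 1278 had an unadjusted p below 0.05 (12.9%). Macrophage markers summed to 208.7 to 233.9 CPM in CTR and to 288.8 to 409.3 CPM in CAC, with 8 of 8 tested markers higher and 2 passing the test. Neutrophil markers summed to 11.9 to 15.2 CPM in CTR and to 173.3 to 441.1 CPM in CAC (3 of 4 tested markers passed), skeletal muscle markers to 1186 to 2944 and to 2586 to 4790 CPM (10 of 10 higher, 0 passed with edgeR, 6 at an unadjusted p below 0.05) and erythrocyte markers to 6179 to 19268 and to 14636 to 44326 CPM (6 of 6 higher, 1 passed). The neutrophil sum is mostly S100a8 and S100a9 (293.5 and 110.3 CPM of the 441.1 in CAC replicate 1). Retnlg of this list also passed, with a mean of 1.02 CPM in CTR and 10.7 CPM in CAC (log2 fold change 3.40, adjusted p = 0.0155 with edgeR). Mmp9 did not pass (log2 fold change 0.66, unadjusted p = 0.0228, adjusted p = 0.286 with edgeR). The 5 other markers, Ngp, Ltf, Camp, Csf3r and Cxcr2, had 7 to 25 counts over the 8 libraries and were not tested. Whether the sum follows neutrophil number was not tested. Brown adipocyte markers, at 17195 to 19100 CPM in CTR and 16648 to 18979 CPM in CAC, were present in every library, with 7 of 12 higher and 1 passing. Liver and kidney markers summed to 0.53 to 2.49 CPM in CTR and 0.54 to 17.3 CPM in CAC, and 4 of the 8 were at 0 counts. The white adipocyte list had summed levels of 186.8 to 206.6 and 153.7 to 228.0 CPM, and its defining gene Lep had 58 counts over the 8 libraries. Endothelial markers summed to 1485 to 1532 and 1317 to 1890 CPM, and fibroblast and progenitor markers to 495.5 to 642.4 and 438.4 to 644.6 CPM, with overlapping groups and no gene passing in these lists. By p-value, the leading 2 genes of each list had log2 fold changes of 0.83 and 0.98 (C1qa and C1qb of macrophages), 5.45 and 5.57 (S100a9 and S100a8 of the neutrophil list), 1.05 and 1.30 (Pvalb and Myh4 of muscle) and 3.88 and 1.66 (Slc4a1 and Hbb-bt of erythrocytes). The values were 1.08 and -0.54 for Agt and Npr3 of the white adipocyte list, 0.37 and -0.32 for the endothelial Aqp1 and Kdr, and 0.69 and -0.28 for Cd34 and Dpt of fibroblasts and progenitors, while Ppargc1a and Plin1 of the brown list are described with the pathway. Npr3 became -0.92 (adjusted p = 0.0071 with edgeR) without CAC replicate 1 and passed with no filter (0.0284), Kdr became -0.20 without CAC replicate 4, Pvalb and Myh4 passed with DESeq2 (adjusted p = 5.69e-05 and 0.0253) and with the replicate number as a block, and Agt, Aqp1 and Cd34 each passed under at least 1 alternative. Of the genes named here C1qa, C1qb, S100a8, S100a9, Retnlg, Slc4a1 and Ppargc1a passed. In whole tissue, fewer cells of a type and less RNA per cell cannot be told apart, and the part of these cell types in the values below was not tested.

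All 10 genes passed the low-count filter, and 0 of the 10 had an adjusted p below 0.05 in edgeR's quasi-likelihood test, against 0.932% of all genes tested. With DESeq2 the number was also 0. With edgeR 1 of the 10 genes, Gpam, had an unadjusted p below 0.05, against 12.9% of all genes tested. The log2 fold change of CAC against CTR was positive for 4 genes and negative for 6, with a median of -0.07 and a median size of 0.10, where the genes tested had a median of 0.00 and a median size of 0.17. The 95% intervals of all 10 genes excluded a doubling and a halving. The edgeR adjusted p-values of the 10 genes lay between 0.11 and 0.959. The 4 mice of a group are separate mice by their labels, and the p-values measure the spread between them.

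**Figure D1:**
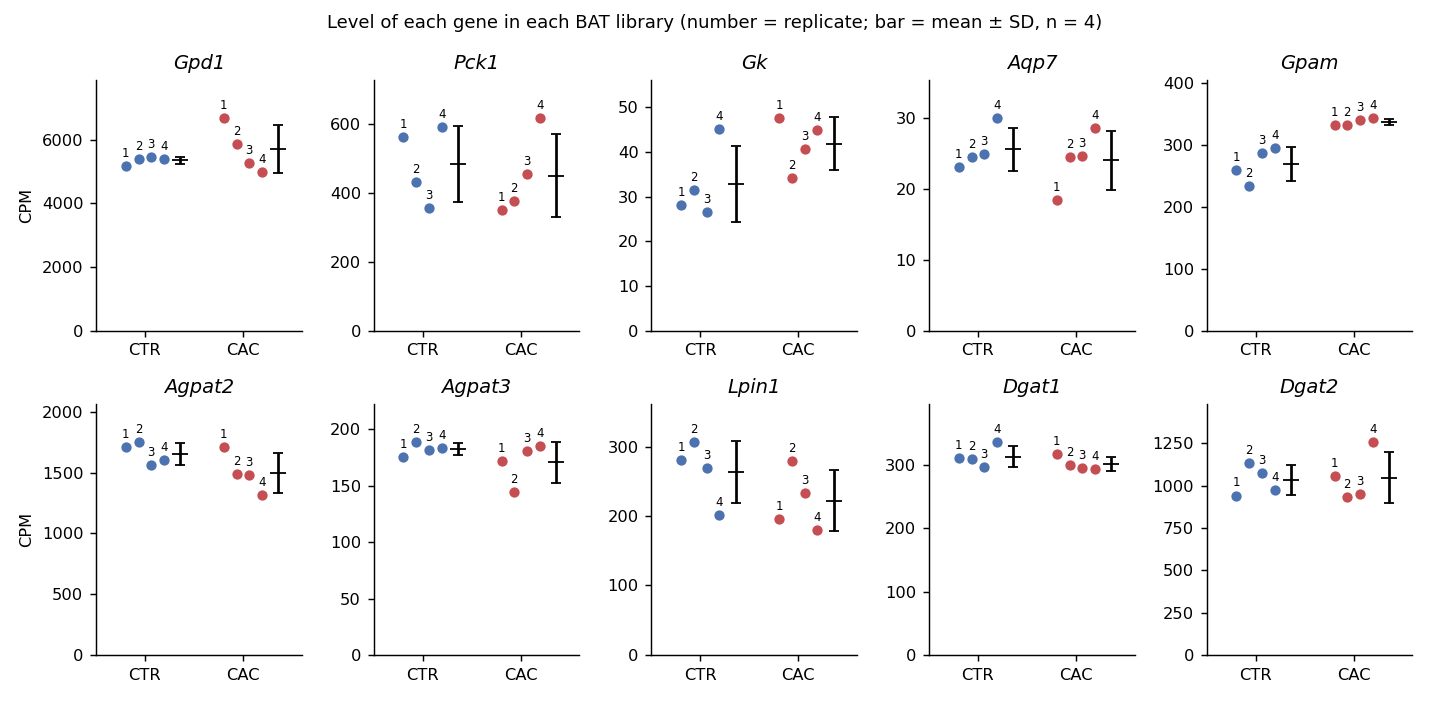
Level of each of the 10 genes in each BAT library, in CPM from 0, with CTR in blue, CAC in red, replicate numbers at the points and the mean ± SD (n = 4) beside each group. The CTR and CAC points overlap in every panel except Gpam, where the CAC libraries sit between 332.4 and 344.1 CPM and the CTR libraries between 234.6 and 295.7 CPM.

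Several of these genes have known hormone-responsive promoters, so the bases before the start sites of Gpam, Gk, Lpin1 and Pck1 are shown. These are the 3 genes with the largest log2 fold changes and Pck1, whose CAC values varied most. RefSeq promoters (GRCm38.p6) matched 7 of the 10 genes, with 9 start sites, by symbol. Dgat1, Dgat2 and Gpd1 were not matched. The sequences run 5′ to 3′ on the strand of the gene up to the annotated start, and capitals mark the motifs found, which are ACGTCA (the core of the cyclic AMP response element), CACGTG (the E-box) and CCAAT, read as ATTGG on the other strand.
Gpam, outer start, chr19:55127239-55127488, minus strand: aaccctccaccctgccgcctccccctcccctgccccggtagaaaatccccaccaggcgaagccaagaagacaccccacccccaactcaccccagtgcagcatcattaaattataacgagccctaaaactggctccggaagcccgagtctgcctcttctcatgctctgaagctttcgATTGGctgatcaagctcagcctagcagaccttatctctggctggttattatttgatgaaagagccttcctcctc
Gpam, inner start, chr19:55099478-55099727, minus strand: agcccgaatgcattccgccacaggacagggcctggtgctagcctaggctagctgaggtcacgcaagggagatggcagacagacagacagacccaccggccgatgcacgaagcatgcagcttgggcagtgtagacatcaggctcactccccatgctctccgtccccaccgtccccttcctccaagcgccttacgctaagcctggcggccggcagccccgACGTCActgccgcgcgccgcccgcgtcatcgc
Gk, chrX:85776820-85777069, minus strand: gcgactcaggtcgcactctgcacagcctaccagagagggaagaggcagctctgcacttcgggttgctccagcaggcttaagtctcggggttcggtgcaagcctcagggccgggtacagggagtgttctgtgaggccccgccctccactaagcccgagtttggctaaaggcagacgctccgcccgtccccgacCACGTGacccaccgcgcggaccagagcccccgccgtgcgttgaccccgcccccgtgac
Pck1, chr2:173152823-173153047, plus strand: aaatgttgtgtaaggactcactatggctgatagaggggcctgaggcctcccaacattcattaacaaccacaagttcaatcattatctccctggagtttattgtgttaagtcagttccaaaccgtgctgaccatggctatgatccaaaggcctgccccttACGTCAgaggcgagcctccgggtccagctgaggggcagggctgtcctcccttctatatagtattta
Lpin1, chr12:16610967-16611216, minus strand: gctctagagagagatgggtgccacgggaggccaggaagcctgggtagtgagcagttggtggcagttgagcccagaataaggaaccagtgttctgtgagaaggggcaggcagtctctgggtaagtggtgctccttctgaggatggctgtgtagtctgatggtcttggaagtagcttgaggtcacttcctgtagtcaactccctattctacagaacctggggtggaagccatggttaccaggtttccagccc
The Pck1 sequence stops at the start of its annotated exon, 225 bases long, and its ACGTCA lies 91 to 86 bases before the RefSeq start. Motifs were searched on both strands of the 250 bases before each start. ACGTCA, which was added to the search after the sequences had been read, was present in Pck1 and at the inner start of Gpam (32 to 27 bases before it), and in 6.47% of 32851 promoters. It is part of the full palindrome TGACGTCA, which was found in none of the 9 member promoters and in 1.55% of all. CACGTG was found in Gk (58 to 53 bases before the start) and in 6.02% of all promoters, and CCAAT at the outer start of Gpam (74 to 70 bases before it) and in 33.8% of all. AGGTCA, the nuclear receptor half-site, is left in lower case. It was found in 4 of the 9 promoters, namely the inner start of Gpam (196 to 191 bases before it), Lpin1 (74 to 69 bases) and both starts of Aqp7, whose windows overlap and share a match, and in 14% of all promoters. TATAAA (12.4% of all) and ACANNNTGT, the core letters of a glucocorticoid response element (5.84% of all), were found in none of the 9. A match of these letters is a description of the sequence and does not show that a factor binds there.

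Gpam, glycerol-3-phosphate acyltransferase of the mitochondrial outer membrane, adds the acyl group that starts the pathway. It (ENSMUSG00000024978.12) lies on the minus strand of GRCm38 at chr19:55067268-55127238, with 25 merged exons of 6664 bases in all. The 4 CTR libraries held 260.2, 234.6, 287.2 and 295.7 CPM and the 4 CAC libraries 333.5, 332.4, 340.5 and 344.1 CPM. Every CAC library was above every CTR library, an order that 3.64% of all tested genes showed. The mean was 269.4 ± 27.7 CPM for CTR and 337.6 ± 5.61 CPM for CAC (SD, n = 4 each), a log2 fold change of 0.33 (standard error, SE, 0.095, 95% interval 0.13 to 0.52, that is 9.24% to 43.8% higher). The unadjusted p was 0.0026, at rank 232 of 9876 genes, and the edgeR adjusted p was 0.11, which did not pass the threshold. The CAC values had a coefficient of variation of 1.66%, below the 3.57% that counting alone gives at this depth, and the CTR values one of 10.3%, against 3.43% from counting. Over 18 alternative fits, the log2 fold change stayed between 0.26 and 0.38 and the adjusted p between 0.0859 and 0.363. An antisense gene, AC110206.1, overlaps Gpam, and the strand setting of the counting is not given in the sources used here.

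Agpat2 and Agpat3 encode acyltransferases that turn lysophosphatidic acid into phosphatidic acid, and loss of Agpat2 causes lipodystrophy in mice and humans. Agpat2 (ENSMUSG00000026922.14, chr2:26593057-26604417, minus strand) was measured at 1713, 1749, 1559 and 1602 CPM in CTR and at 1711, 1490, 1478 and 1312 CPM in CAC. Thus 3 of 4 CAC libraries lay below every CTR library, and CAC replicate 1 lay at the level of CTR replicate 1. The mean was 1656 ± 89.8 CPM for CTR and 1498 ± 164 CPM for CAC (SD, n = 4), and the log2 fold change was -0.14 (SE 0.095, 95% interval -0.34 to 0.05, adjusted p = 0.554 with edgeR), or -0.08 without CAC replicate 4. Egfl7 and Gm20532 overlap it on the opposite strand. Fractions of reads occur on Agpat2 in 7 of the 8 libraries, on Gpd1 in 5 and on Aqp7 in 4. They occur on Gpam and Dgat1 in 1 each and on the other genes in 0. Of the genes with fractions, Agpat2, Gpd1 and Gpam overlap another gene, and Aqp7 and Dgat1 overlap none. Agpat3 and Gk overlap other genes and had no fractions. The source of the fractions, and the part of overlaps in it, was not tested. Agpat3 (ENSMUSG00000001211.16, chr10:78269178-78352489, minus strand) had 175.3, 188.6, 182.2 and 183.9 CPM in CTR and 172.4, 144.6, 180.5 and 185.5 CPM in CAC. Its groups overlapped, with CAC replicate 2 the lowest of the 8 libraries, and its log2 fold change was -0.09 (SE 0.10, 95% interval -0.30 to 0.12, adjusted p = 0.757 with edgeR), or -0.02 without CAC replicate 2. Gm47992, n-R5s77, Mir7659 and Gm40709 overlap Agpat3.

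Lpin1 encodes lipin 1, the phosphatidate phosphatase that makes diacylglycerol and also acts in the nucleus as a coregulator. Lpin1 (ENSMUSG00000020593.17, chr12:16535669-16610966, minus strand) stood at 280.0, 306.0, 268.5 and 201.3 CPM in CTR and at 195.7, 278.7, 232.7 and 180.2 CPM in CAC. The groups overlapped, since CTR replicate 4 was below 2 CAC libraries and CAC replicate 2 was above 2 CTR libraries. The mean was 263.9 ± 44.6 CPM for CTR and 221.8 ± 43.8 CPM for CAC (SD, n = 4), and the log2 fold change was -0.25 (SE 0.14, 95% interval -0.55 to 0.05, adjusted p = 0.494 with edgeR), or -0.16 without CAC replicate 4. Its coefficient of variation within a group, 16.9% in CTR and 19.8% in CAC, was above the 3.46% and 4.43% that counting gives.

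Dgat1 and Dgat2 encode the unrelated acyltransferases of the last step, which convert diacylglycerol into triglyceride. Dgat1 (ENSMUSG00000022555.13, chr15:76502015-76511953, minus strand) had 310.6, 309.2, 296.3 and 335.6 CPM in CTR and 316.8, 299.9, 294.5 and 293.9 CPM in CAC. These 8 values lay close together, with a log2 fold change of -0.06 (SE 0.089, 95% interval -0.24 to 0.13, adjusted p = 0.857 with edgeR), so a difference beyond 15.4% lower or 9.45% higher lay outside the interval. Without CTR replicate 4 it was -0.01. Dgat2 (ENSMUSG00000030747.6, chr7:99153658-99182719, minus strand) had 941.8, 1135, 1076 and 977.2 CPM in CTR and 1055, 931.1, 949.1 and 1256 CPM in CAC. CAC held both the highest and the lowest of the 8 Dgat2 values, in replicates 4 and 2, and the log2 fold change was 0.02 (SE 0.10, 95% interval -0.19 to 0.24, adjusted p = 0.959 with edgeR). Its sign turned negative with upper quartile normalization and without the low-count filter, and also when CTR replicate 1 or CAC replicate 4 was left out.

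Pck1 encodes the cytosolic phosphoenolpyruvate carboxykinase, the controlling enzyme of glyceroneogenesis in adipose tissue. Pck1 (ENSMUSG00000027513.12, chr2:173153048-173159273, plus strand) was at 561.4, 430.7, 355.2 and 590.9 CPM in CTR and at 350.3, 377.6, 453.9 and 617.7 CPM in CAC. The lowest and the highest of the 8 libraries were both CAC mice, replicates 1 and 4, and the CTR values lay between them. The coefficient of variation was 22.9% in CTR and 26.7% in CAC, where counting gives 2.65% and 3.23%. The log2 fold change of -0.11 (SE 0.22, 95% interval -0.62 to 0.41, adjusted p = 0.90 with edgeR) changed sign when CTR replicate 4 (0.01) or CAC replicate 1 (0.0017) was left out, and its interval runs from 35.0% lower to 32.9% higher.

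Gpd1 encodes cytosolic glycerol-3-phosphate dehydrogenase, which reduces dihydroxyacetone phosphate to glycerol-3-phosphate. Gpd1 (ENSMUSG00000023019.13, chr15:99717515-99725005, plus strand) had 5176, 5392, 5456 and 5393 CPM in CTR and 6691, 5884, 5267 and 4984 CPM in CAC. The CTR mice lay within a narrow band, and the CAC mice lay on both sides of it, 2 above every CTR library and 1 below. The coefficient of variation was 2.29% in CTR and 13.3% in CAC, and this difference in spread was not tested. The mean was 5354 ± 123 CPM for CTR and 5706 ± 757 CPM for CAC (SD, n = 4), and the log2 fold change was 0.09 (SE 0.097, 95% interval -0.11 to 0.29, adjusted p = 0.749 with edgeR), which became 0.01 without CAC replicate 1 and 0.16 without CAC replicate 4. The antisense gene Gm16537 overlaps Gpd1.

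Gk encodes glycerol kinase, which phosphorylates free glycerol and is known to be more active in brown than in white fat, and Aqp7 encodes the aquaglyceroporin through which glycerol crosses the adipocyte membrane. Gk (ENSMUSG00000025059.17, chrX:85701937-85776819, minus strand) had 28.1, 31.4, 26.6 and 45.2 CPM in CTR and 47.6, 34.0, 40.7 and 45.0 CPM in CAC. Every CAC library was above CTR replicates 1, 2 and 3, and CTR replicate 4 lay among the CAC libraries. The mean was 32.8 ± 8.50 CPM for CTR and 41.8 ± 5.91 CPM for CAC (SD, n = 4), and the log2 fold change was 0.33 (SE 0.16, 95% interval -0.01 to 0.66, unadjusted p = 0.0551, adjusted p = 0.399 with edgeR). Leaving out CTR replicate 4 gave 0.54 with an edgeR adjusted p of 0.0853, so the gene did not pass there either. Its coefficient of variation was 25.9% in CTR and 14.1% in CAC, where its 64 to 205 counts per library give 10.2% in both by counting alone. Gm14767 and Gm14764 overlap Gk.

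Aqp7 (ENSMUSG00000028427.14, chr4:41033074-41048139, minus strand) had 23.0, 24.5, 24.9 and 29.99 CPM in CTR and 18.4, 24.5, 24.6 and 28.6 CPM in CAC. Its groups overlapped, and its spread of 11.8% in CTR and 17.5% in CAC is close to the 11.2% and 13.7% that its 34 to 136 counts per library give by counting alone. The log2 fold change was -0.09 (SE 0.16, 95% interval -0.41 to 0.24, adjusted p = 0.875 with edgeR) and turned positive when CTR replicate 4 or CAC replicate 1 was left out.

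**Figure D2:**
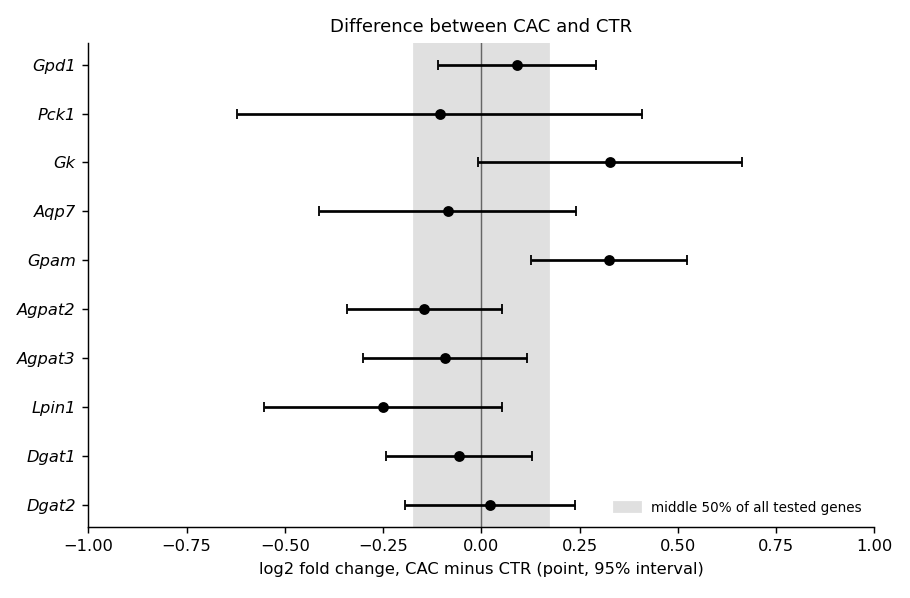
Log2 fold change of CAC against CTR for each of the 10 genes (points) with its 95% interval (bars), beside the middle 50% of all tested genes, -0.17 to 0.17 (grey). The points of 7 genes lie in the grey band, those of Gpam (0.33), Gk (0.33) and Lpin1 (-0.25) lie outside it, and 1 interval, that of Gpam, leaves out 0.

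**Figure D3:**
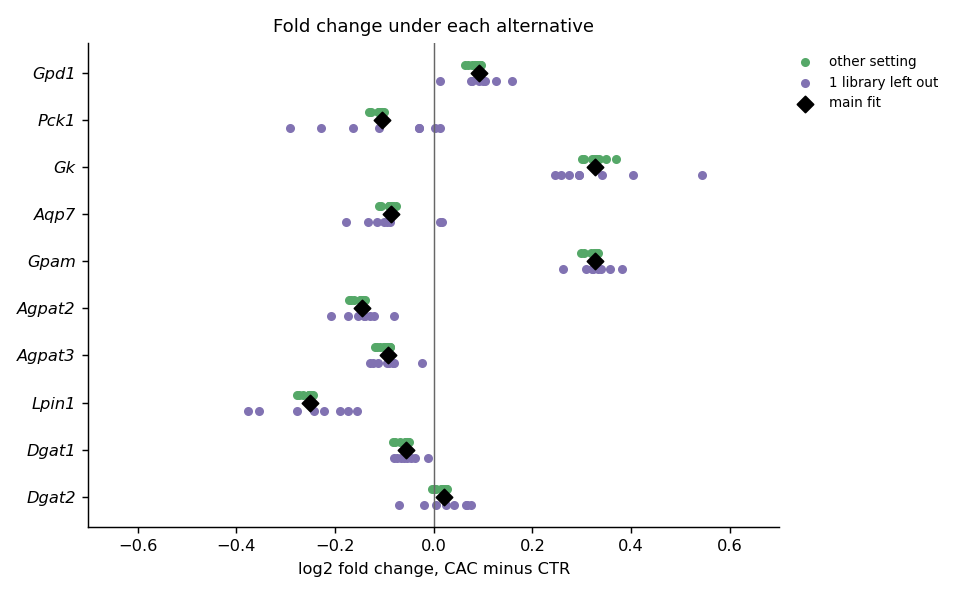
Log2 fold change of CAC against CTR for each gene as reported (black diamonds), with 1 library left out (violet) and with other normalizations, filters, tests or roundings (green). The points of Gpam, Gk and Gpd1 stay right of 0 and those of Lpin1, Agpat2, Agpat3 and Dgat1 left of it. The points of Dgat2, Pck1 and Aqp7 fall on both sides.

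Within the CAC group, replicates 1 and 4 lay at opposite ends for 5 of the 10 genes, a pattern chosen after the values had been seen, which 18.9% of all tested genes showed. CAC replicate 1 was the highest CAC library and replicate 4 the lowest for Agpat2, Dgat1 and Gpd1. For Pck1 and Aqp7 the order was the opposite, with replicate 1 lowest and replicate 4 highest. Of the 9 cell type lists, the summed neutrophil markers were highest in replicate 1 (441.1 CPM) and lowest in replicate 4 (173.3 CPM), as were the endothelial markers (1890 and 1317 CPM). Egfl7 (1175, 933.3, 836.9 and 763.1 CPM in CAC) is the largest part of the endothelial sum and overlaps Agpat2 on the opposite strand. Kdr (155.7, 142.5, 140.4 and 102.8 CPM), Tek (10.3, 10.1, 8.2 and 6.62 CPM) and Emcn (27.0, 18.6, 21.1 and 9.06 CPM) were also highest in replicate 1 and lowest in replicate 4. Pecam1 (70.8, 90.9, 90.5 and 66.6 CPM) was highest in replicate 2 and lowest in replicate 4. Cdh5 was lowest in replicate 1 (4.87 CPM) and Aqp1 in replicate 3 (283.1 CPM). The other 7 lists ordered the CAC libraries differently, such as the erythrocyte markers, lowest in replicate 2 (14636 CPM), and the part of any list in the order was not tested. In CTR, replicate 4 was the highest library for Gpam, Dgat1, Pck1, Gk and Aqp7 and the lowest for Lpin1.

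Ratios of counts within a library do not depend on the scaling between libraries, and 4 were compared by exact two-sided permutation tests over 70 assignments, for which 0.0286 is the smallest p. The log2 ratio of Pck1 to Gk, glyceroneogenesis against glycerol phosphorylation, was 4.31, 3.77, 3.73 and 3.71 in CTR and 2.87, 3.46, 3.47 and 3.78 in CAC. Of the CAC libraries 3 lay below every CTR library, and the mean differed by -0.48 (3.88 ± 0.29 in CTR, 3.40 ± 0.38 in CAC, SD, n = 4, exact permutation p = 0.114, adjusted p = 0.456 over the 4 ratios). Gpd1 to Gk differed by -0.29 (7.38 ± 0.34 in CTR, 7.09 ± 0.26 in CAC, exact permutation p = 0.257, adjusted p = 0.514). The ratio of Agpat2 to Agpat3 differed by -0.05 (3.18 ± 0.09 and 3.13 ± 0.25, exact permutation p = 0.771) and that of Dgat2 to Dgat1 by 0.07 (1.72 ± 0.17 and 1.79 ± 0.21, exact permutation p = 0.657, adjusted p = 0.771 for both), and the groups overlapped in each. With 1 library left out the difference in Pck1 to Gk ranged from -0.61 to -0.31 (without CAC replicate 1) and that in Gpd1 to Gk from -0.45 (without CTR replicate 4) to -0.19 (without CAC replicate 4, and likewise without CTR replicate 3). Agpat2 to Agpat3 ranged from -0.13 to 0.05 and Dgat2 to Dgat1 from -0.03 to 0.12, and both turned sign without CAC replicate 4.

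**Figure D4:**
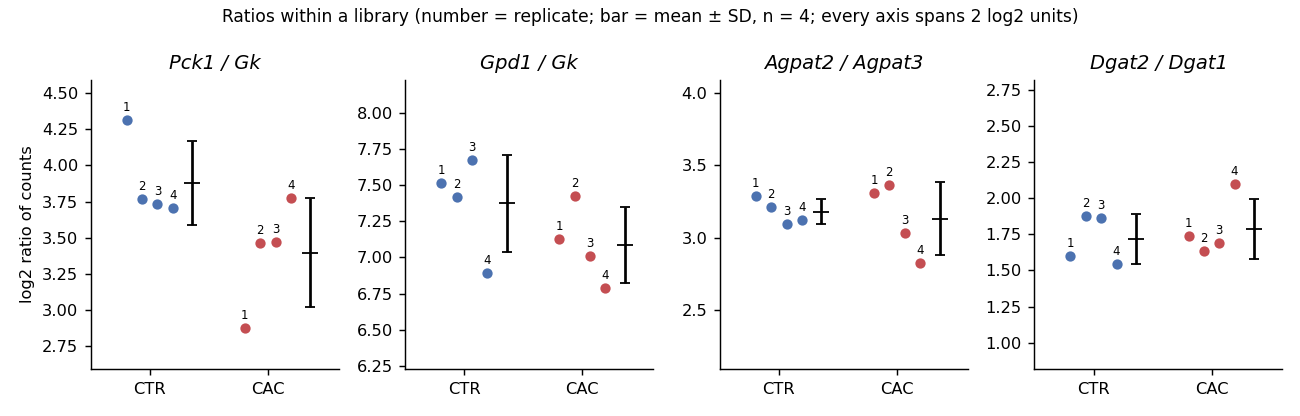
Log2 ratio of counts between pairs of genes in each library (points with replicate numbers), with the mean ± SD (n = 4) beside each group and axes of equal span that do not start at 0. For Pck1 / Gk the CAC points 1, 2 and 3 (2.87 to 3.47) lie below the CTR points (3.71 to 4.31), and in the other panels the groups overlap.

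Other genes of the pathway were read from 6 lists of 89 genes, of which 76 were tested. A single gene, Ppargc1a, passed the test, which is 1.32% of them, against 0.932% of all genes tested. Among the other enzymes of the acylation steps, 4 of 9 tested genes had a positive and 5 a negative log2 fold change (median -0.03), and none passed. Gpat4 and Gpat3, which catalyse the same step as Gpam in the endoplasmic reticulum, are in this list. Gpat4 was measured at 443.0, 397.6, 497.1 and 449.3 CPM in CTR and at 526.5, 454.7, 532.7 and 617.7 CPM in CAC, with overlapping groups and a log2 fold change of 0.26 (SE 0.10, unadjusted p = 0.0216, adjusted p = 0.282 with edgeR). Gpat3 had 2.49 to 4.41 CPM in CTR and 3.78 to 6.45 CPM in CAC (log2 fold change 0.45, SE 0.31, adjusted p = 0.578 with edgeR, or 0.25 without CAC replicate 3). Gpam, Gpat3 and Gpat4 had positive log2 fold changes, as did 50.0% of all tested genes, and none of the 3 passed. Gpat3 had 101 counts over the 8 libraries, and Gpat2 of this list had 6 and was not tested. Mogat1, a monoacylglycerol acyltransferase that makes diacylglycerol by another route, had 8.28, 5.33, 6.23 and 5.07 CPM in CTR and 2.70, 4.79, 3.81 and 3.14 CPM in CAC. Every CAC library of Mogat1 was below every CTR library, an order that 3.4% of tested genes showed, and its log2 fold change was -0.75 (SE 0.30, unadjusted p = 0.0203, adjusted p = 0.279 with edgeR) on 117 counts over the 8 libraries.

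Among the other genes of glycerol and glycerol-3-phosphate supply, 5 of 11 tested genes had a positive and 6 a negative log2 fold change (median 0.00), and none passed. Aldoa, the glycolytic aldolase upstream of dihydroxyacetone phosphate, had 3706 to 4266 CPM in CTR and 4889, 6913, 4608 and 4639 CPM in CAC. These groups did not overlap, an order that 3.64% of all tested genes showed. The log2 fold change of Aldoa was 0.39 (SE 0.12, unadjusted p = 0.0031, adjusted p = 0.119 with edgeR). It was 0.36 with an edgeR adjusted p of 0.0046 when no gene was filtered out, and 0.23 with an adjusted p of 0.339 without CAC replicate 2. Aldoa is also abundant in skeletal muscle, whose summed markers were 2586 to 4790 CPM in CAC and 1186 to 2944 CPM in CTR, and the part of muscle in this value was not tested. Pcx, the pyruvate carboxylase that feeds glyceroneogenesis, had 212.9 to 232.5 CPM in CTR and 248.1, 368.0, 259.3 and 225.2 CPM in CAC (log2 fold change 0.30, unadjusted p = 0.0229, adjusted p = 0.286 with edgeR), which became 0.13 (adjusted p = 0.659) without CAC replicate 2. Gpd2, the mitochondrial glycerol-3-phosphate dehydrogenase that uses up glycerol-3-phosphate in the shuttle active in BAT, had 1556 to 1781 CPM in CTR and 1411 to 1596 CPM in CAC (log2 fold change -0.14, adjusted p = 0.539 with edgeR). Gk2 and Aqp3 had 0 counts in all libraries and Aqp9 had 4.

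Fatty acids enter the pathway as acyl-CoA. Of 10 tested genes of fatty acid activation and desaturation, 5 had a positive and 5 a negative log2 fold change (median 0.00) and none passed. Scd2, a stearoyl-CoA desaturase, had 66.4 to 112.9 CPM in CTR and 40.4 to 81.9 CPM in CAC (log2 fold change -0.68, SE 0.23, unadjusted p = 0.0139, adjusted p = 0.242 with edgeR), and it passed with no filter, with the replicate number as a block and without CAC replicate 2. Slc27a1, a fatty acid transporter with acyl-CoA synthetase activity, had 17.6 to 19.79 CPM in CTR and 19.87 to 28.4 CPM in CAC (log2 fold change 0.40, adjusted p = 0.284 with edgeR). Its groups lay next to each other without overlap, an order that 3.64% of all tested genes showed. Scd1 had 7848 to 10337 CPM in CTR and 7590 to 8897 CPM in CAC (log2 fold change -0.16, adjusted p = 0.527 with edgeR, or -0.09 without CTR replicate 4).

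Phosphatidic acid and diacylglycerol are also taken into phospholipids, and none of the 17 tested genes of that branch passed (9 positive, 8 negative, median 0.02). Chpt1, choline phosphotransferase, which competes for diacylglycerol, had 442.8 to 458.6 CPM in CTR and 348.1, 421.2, 394.4 and 422.2 CPM in CAC. The groups did not overlap, an order that 3.4% of all tested genes showed. The log2 fold change of Chpt1 was -0.18 (SE 0.091, adjusted p = 0.403 with edgeR), or -0.12 without CAC replicate 1. The values for Cdipt, phosphatidylinositol synthase, and Crls1, cardiolipin synthase, were -0.43 (adjusted p = 0.38 with edgeR) and -0.31 (adjusted p = 0.44 with edgeR), the latter -0.20 without CAC replicate 1.

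Of the 14 tested genes of triglyceride breakdown and droplet proteins, 11 had a positive and 3 a negative log2 fold change (median 0.09), and none passed. Plin1, the perilipin that coats the droplet and holds back lipolysis, had 644.0 to 680.1 CPM in CTR and 510.3, 489.2, 581.9 and 616.7 CPM in CAC. Every CAC library was below every CTR library, an order that 3.4% of all tested genes showed. The log2 fold change of Plin1 was -0.27 (SE 0.094, unadjusted p = 0.0084, adjusted p = 0.192 with edgeR). For the droplet proteins Cidec and Plin2 the log2 fold change was 0.21 and 0.20, with edgeR adjusted p-values of 0.326 and 0.418, and Plin2 was at 0.11 without CAC replicate 1.

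Among 15 tested transcriptional regulators of these genes, 6 had a positive and 9 a negative log2 fold change (median -0.11). Ppargc1a, the coactivator PGC-1α of mitochondrial and thermogenic genes, rose from 51.8 ± 10.4 to 86.5 ± 16.9 CPM (SD, n = 4), with 43.9, 44.7, 52.3 and 66.4 CPM in CTR and 106.5, 65.9, 91.1 and 82.3 CPM in CAC. Its log2 fold change was 0.73 (SE 0.15, adjusted p = 0.0201 with edgeR), CAC replicate 2 lay just under CTR replicate 4, and the call was lost without CTR replicate 1 (log2 fold change 0.66, adjusted p = 0.0877), CTR replicate 2 (0.66, adjusted p = 0.0751) or CAC replicate 3 (0.70, adjusted p = 0.0875), with a fold change of similar size. Foxo1, which activates Pck1 in the fasted state, had 63.3 to 83.9 CPM in CTR and 84.7 to 119.6 CPM in CAC (log2 fold change 0.43, adjusted p = 0.112 with edgeR). Its groups did not overlap, an order that 3.64% of all tested genes showed. Pparg, the master regulator of adipocyte differentiation, which controls Pck1, Gk and Aqp7 in fat cells, had 57.9, 50.1, 27.4 and 29.3 CPM in CTR and between 20 and 31.9 CPM in CAC. Its groups overlapped, with a log2 fold change of -0.71 (SE 0.25, unadjusted p = 0.0173, adjusted p = 0.261 with edgeR), and it passed when no gene was filtered out (adjusted p = 0.00037). Srebf1, which controls Gpam among other lipogenic genes, had 11.5 to 31.4 CPM in CTR and 7.45 to 16.4 CPM in CAC (log2 fold change -0.82, SE 0.33, adjusted p = 0.326 with edgeR). Ppara had 85.8 to 186.3 CPM in CTR and 175.7 to 188.8 CPM in CAC, with overlapping groups. Its log2 fold change was 0.50 (SE 0.22, unadjusted p = 0.0488, adjusted p = 0.381 with edgeR). With Ppargc1a, these are the 5 regulators of the list with an unadjusted p below 0.05 with edgeR.

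**Figure D5:**
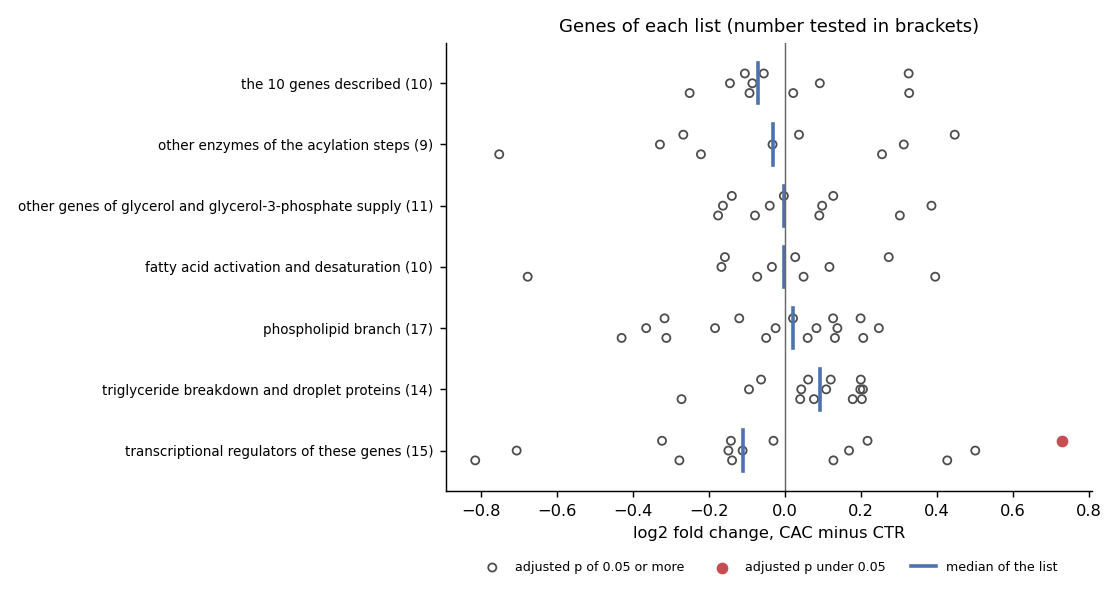
Log2 fold change of CAC against CTR for the tested genes of each list (circles, with the number tested in brackets), the median of the list (blue bar) and the gene with an adjusted p below 0.05 (red). The medians lie between -0.11 and 0.09, and the single red point is Ppargc1a at 0.73.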

How the data were processed

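RNA of BAT from 4 CTR and 4 CAC mice was sequenced, 1 library per mouse, with a digital mRNA-seq service (single-end reads). The authors checked reads with FastQC 0.11.9, aligned them to mm10 with HISAT2 2.2.1 and assigned them to genes in featureCounts, multi-mapping reads included. The deposited table holds expected counts for 56953 genes, with fractions in 25.1% to 28.4% of the nonzero values of a library. A deposited table of DESeq2-normalized signal for 24792 genes equals the count without decimals over 1 factor per library in 100% of values (relative tolerance 1e-06), and served only for alternatives.

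Expected counts were rounded to whole reads and tested with edgeR 4.0.16 in R 4.3.3 (filterByExpr, TMM, robust quasi-likelihood fit, CAC against CTR, Benjamini-Hochberg over 9876 genes, threshold 0.05). Precision follows from 1823167 to 4827956 counts per library. The procedure was tested on simulated data. Ratios used counts plus 0.5 and exact permutation tests. The members, lists and tests were chosen with earlier results of these data known. All members are described, and from each pathway list the genes with an adjusted p below 0.05, or otherwise the 3 with the smallest p. From cell type lists, the 2 genes with the smallest p are named. Lep, Retnlg, Mmp9, Ngp, Ltf, Camp, Csf3r, Cxcr2, Egfl7, Pecam1, Cdh5, Tek, Emcn, Ddx3y, Xist, Gpat2, Gk2, Aqp3, Aqp9, Foxo1, Pparg, Srebf1 and Ppara were named after their values were seen. Gene coordinates are from GENCODE M21 (GRCm38), matched by Ensembl ID without version, as 91.4% of IDs did. Alternatives were DESeq2 1.42.0, other normalizations and filters, counts without decimals, no mitochondrially encoded genes, limma 3.58.1 on the signal plus 1, the replicate number as a block and each library left out. Python 3.11.15 (pandas 2.3.3, numpy 2.4.6) made the tables, and matplotlib 3.10.9 the plots.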

Additional observations from a re-analysis of the deposited data

Results flagged for a closer look

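Of 110 groups of 4 libraries examined for a library that stands apart from the other 3 (Dixon's test), 7 had one, where about 1 in 20, that is 5.5, come by chance. Among the 10 genes none stood apart in CPM, and the log2 ratio of Pck1 to Gk did in CTR replicate 1 (4.313, the others 3.705 to 3.771). Among pathway genes, Aldoa stood at 6913 CPM in CAC replicate 2 (the others 4608 to 4889) and Crls1 at 32.19 CPM in CTR replicate 4 (25.91 to 26.97). Aqp1, the water channel of the endothelial list, stood at 330.3 CPM in CTR replicate 3 (268.1 to 276.7). Summed brown adipocyte markers were 19100 CPM in CTR replicate 4 (17195 to 17466), summed macrophage markers 208.7 CPM in CTR replicate 3 (230.6 to 233.9) and summed liver and kidney markers 17.29 CPM in CAC replicate 3 (0.54 to 2.66).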

How the results depend on the processing

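None of the 10 genes passed under any of their 18 alternatives, and 172 of the 180 values kept their direction. The other 8 had a turned sign. For Dgat2 they were -0.00022 (upper quartile normalization) and -0.0037 (no filter), and leaving out 1 library gave -0.07105 to 0.07465. Leaving out 1 library gave -0.2918 to 0.01237 for Pck1 and -0.1771 to 0.01681 for Aqp7. The number of genes that passed, 92, became 351 with no filter, with 23730 genes tested, and 42 to 135 with 1 library left out (42 without CTR replicate 1, 60 without CAC replicate 3). With the replicate number as a block 140 genes passed, and 0 of the 10. The cause was not tested. Same-numbered mice had correlations of their deviations between -0.02 and 0.04, and mice of different numbers between -0.05 and 0.04. Not every library correlated best with its own number. Correlations this small, from 4 mice per group, cannot show whether the numbers pair the mice. No stability is read from the ratio tests, since no ratio alone could pass after adjustment, and with 1 library left out no ratio was tested. Aqp7, with 34 to 136 counts per library, had a spread near that of counting, and Gk did not in CTR.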
